A study of Mus musculus with 41 samples.

Results

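The angiogenic factors and receptors described here are 10 genes, chosen by name from the 27197 genes of the count table: the ligands Vegfa, Vegfb, Vegfc, Angpt1, Angpt2, and Angpt4 and the receptors Kdr, Flt1, Tek, and Tie1. The choice was meant to set ligands made by tumor cells apart from endothelial receptors seen in tumors alone. By read counts, that division held for Tie1, which had 0 reads in every cell line, and nearly held for Tek, but not for Kdr and Flt1, which tumor cells in culture transcribed too. VEGFs bind the receptor tyrosine kinases VEGFR1 (Flt1), VEGFR2 (Kdr), and VEGFR3 (Flt4) and drive growth of blood and lymph vessels. Angiopoietins bind TIE2 (Tek) and set the stability of vessels, with the related TIE1 as its partner in endothelial cells. Mesothelioma arises in the lining of the pleura, where VEGF also governs leakage of fluid.

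Messenger RNA was sequenced from 3 BNC lines (JB81, JB91, and JB97; genotype Bap1-/-;Nf2-/-;Cdkn2ab-/-), 3 NC lines (JB84, JB87, and JB93; Nf2-/-;Cdkn2ab-/-), and 9 mesothelioma tumors. Lines and tumors came from young conditional knockout mice of mixed strain background, kept on cyclosporine A around the time an adenovirus with Cre behind the ubiquitous CMV promoter was injected into the pleural space. All of them therefore share the Nf2 and Cdkn2ab deletions, and the Cdkn2ab allele lacks Ink4a and Ink4b from the germline. The lines grew out of minced tumors and were used at early passage, in medium with serum, EGF, and hydrocortisone. The labels name 5 BNC and 4 NC tumors, but the tumor columns carry only numbers (B1, B2, B13, B14, B19, B27, B28, B45, and 1 without a B number, here T22), so the tumors were kept as 1 group and no genotype comparison was made in them.

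The libraries held between 8158740 and 23936922 reads on genes. Tumor B1 was the shallowest and stood apart, with 24.7% of its reads on Gm42418 and 13.8% on Lars2, and B13 had 7.18% on Gm42418. Bap1 was between 36.9 and 41.4 CPM in BNC lines and between 56.8 and 60.3 CPM in NC lines, in a count that includes exons outside the deletion. Among the lines, JB81 and JB91 differed more than 2-fold in 5 of the 10511 genes to which both together gave 100 reads or more, and JB84 and JB93 in 8 of 10545, against 1474 or more in the other pairs of a group, so each group of 3 holds a closely similar pair. Whether the lines of such a pair came from separate mice is not given in the sources used here, and the p-values measure the spread between these libraries. All tumors carry 1 run number in their column names and the lines 2 others, so run and tissue cannot be told apart. In bulk tissue, fewer cells of a type and less RNA per cell cannot be told apart either.

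Levels are given as CPM (reads on a gene for each 1000000 reads of the library) after TMM scaling of all 15 libraries. The endothelial content of the samples was read first, from 14 marker genes. Their summed level was between 7.60 and 41.8 CPM in the lines and between 237 and 1742 CPM in the tumors. Cldn5, Robo4, Erg, and Sox17 had 0 reads in all 6 lines, and the junction genes Pecam1 and Cdh5 and the clotting factor gene Vwf had at most 5. Most of what remained in the lines was Esam, an adhesion gene (up to 38.1 CPM), and Egfl7, a secreted vessel factor (up to 7.38 CPM). Every tumor had reads on all 14 markers, and B27 and B2 had the highest summed levels, 1742 and 1152 CPM. Tumor B2 also held lung genes (47190 CPM summed over 5, against at most 87.2 CPM in other libraries). The part of lung tissue in its marker level was not tested.

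Vegfa (chromosome 17 of GRCm38, 46016993 to 46032369), the main growth factor for blood vessels, was abundant in all lines. It measured 139 and 144 CPM in the pair JB81 and JB91 and 74.9 CPM in JB97, and 183 and 193 CPM in the pair JB84 and JB93 and 58.4 CPM in JB87. The groups overlapped, and JB97 and JB87 were the low line of each. In the tumors it ranged from 47.9 CPM in B1 to 393 CPM in B28, with a median of 133 CPM, so that the lines lay within the tumor range. Its log2 fold change was -0.30 between BNC and NC lines (SE 0.50, adjusted p = 0.687; quasi-likelihood test in edgeR, adjusted by Benjamini-Hochberg over all genes, as throughout) and 0.36 between tumors and lines (SE 0.45, adjusted p = 0.502).

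Vegfb (chromosome 19, 6982473 to 6987651), a ligand of VEGFR1 linked to lipid handling in muscle and heart, varied little over the lines. It had 12.9, 13.6, and 14.8 CPM in JB81, JB91, and JB97 and 21.8, 15.05, and 23.4 CPM in JB84, JB87, and JB93. Every BNC line was below every NC line, but JB97 and JB87 nearly met, and the log2 fold change was -0.57 (SE 0.22, adjusted p = 0.127). In tumors the level was between 17.6 and 69.7 CPM with a median of 27.3 CPM. The tumors B19, B1, and B45 stood above the rest with 69.7, 60.8, and 59.2 CPM, whereas the other 6 reached at most 29.2 CPM. The same 3 tumors had the most reads on 5 skeletal muscle genes (Acta1, Ckm, Mylpf, Tnnt3, and Atp2a1), with summed levels of 52002, 51351, and 48278 CPM against at most 10068 CPM in the others. The part of muscle in the Vegfb level was not tested further. Between tumors and lines the log2 fold change of Vegfb was 1.10 (SE 0.36, adjusted p = 0.0154), and without these 3 tumors it was 0.40 (SE 0.19, adjusted p = 0.0885). Because these 3 tumors are also the highest in Vegfb, a smaller value without them was fixed in advance. It is no test of the part of muscle.

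Vegfc (chromosome 8, 54077606 to 54187096), the ligand of VEGFR3 that acts on lymphatic vessels, was low in the lines. It had 1.53, 2.11, and 6.36 CPM in JB81, JB91, and JB97 and 6.61, 10.9, and 5.52 CPM in JB84, JB87, and JB93. JB97 lay within the NC range, and the log2 fold change between BNC and NC lines was -1.24 (SE 0.60, adjusted p = 0.195). All 9 tumors were above all 6 lines, with a lowest level of 13.7 CPM in B1, a median of 20.7 CPM, and a highest level of 45.8 CPM in B28. The log2 fold change of 2.35 passed the test (SE 0.41, adjusted p = 0.000224).

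The angiopoietin genes were each high in some of the BNC lines and low in all NC lines. Angpt1 (chromosome 15, 42424723 to 42676977), the agonist of TIE2, had 1.82 and 1.41 CPM in JB81 and JB91 and 19.3 CPM in JB97. Among NC lines it was at 0.126 CPM in JB84, 0.694 CPM in JB87, and 0.226 CPM in JB93, or 2, 9, and 5 reads. Angpt2 (chromosome 8, 18690263 to 18741562), the context-dependent antagonist, had the opposite distribution over the BNC lines, with 17.2 and 16.8 CPM in JB81 and JB91 and 0.350 CPM in JB97. The NC lines JB84, JB87, and JB93 had 0.378, 0.0772, and 0.633 CPM, so JB97 lay among them. Angpt4 (chromosome 2, 151911210 to 151945337), another TIE2 ligand, was at 19.5 and 18.3 CPM in JB81 and JB91 and at 2.002 CPM in JB97. JB87 had 1 read of it, and JB84 and JB93 had 0. At the summed level of these 3 ligands the groups stood apart, at 21.7 to 38.5 CPM in BNC lines and 0.503 to 0.860 CPM in NC lines. JB81 and JB91 reached it through Angpt2 and Angpt4, and JB97 mainly through Angpt1. Marker genes of other cell types also differed between these lines. The summed level of 9 mesothelial markers was 128 CPM in both JB81 and JB91, 923 CPM in JB97, and between 2493 and 3121 CPM in the NC lines. Acta2, the smooth muscle actin gene, had 2800, 3033, and 2093 CPM in JB81, JB91, and JB97, and 0.692, 689, and 1.49 CPM in JB84, JB87, and JB93. Between BNC and NC lines Acta2 did not pass the edgeR test (log2 fold change 3.51, SE 2.29, adjusted p = 0.307). Of the 5 mural cell markers tested there, Acta2 among them, 3 had a value above 0. Des (-2.99, SE 0.56, adjusted p = 0.0260) and Notch3 (-0.77, SE 0.53, adjusted p = 0.326) went the other way. The part of these marker differences between lines in the levels of Angpt2, Angpt4, and Kdr was not tested.

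By the BNC mean (13.3 CPM), Angpt4 was at least 71.6-fold higher in BNC than in NC lines, as a lower bound against the floor of 3 reads per NC library. This bound rests on the similar pair JB81 and JB91 and does not hold for JB97, at 2.002 CPM against a floor of 0.185 CPM. The adjusted p of Angpt4 was 0.0190, past 0.05 but not past 0.01. It did not pass 0.05 with the run covariate (adjusted p = 0.0530), with the similar pairs summed (0.306), with the replicate block (0.168), or without any one of JB81, JB91, JB84, and JB93 (0.0869 to 0.0942), whereas it was 1.99e-08 by DESeq2. The log2 fold changes of Angpt2 (4.89, SE 1.46, adjusted p = 0.0725) and Angpt1 (4.41, SE 1.33, adjusted p = 0.0735) missed both thresholds. Angpt2 and Angpt4 are in gene lists the study drew from these same lines, so their direction here is no independent evidence. The similar pair JB81 and JB91 was sequenced in different runs, each beside at least 1 NC line (JB84 and JB87, or JB93), and within either run Angpt2 and Angpt4 were higher in the member of the pair than in the NC lines. In JB97, run beside JB93, Angpt2 was lower than in that NC line. JB81 and JB91 are closely similar, so these levels describe the libraries and are no test across runs. With the run covariate the adjusted p of Angpt2 was 0.128 (edgeR).

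In the tumors all 3 angiopoietins were present. Angpt1 was between 5.33 CPM in B27 and 48.1 CPM in B2, with a median of 23.1 CPM, and only JB97 of the lines reached the tumor range. Angpt2 was between 7.58 CPM in B14 and 53.6 CPM in B27, with a median of 11.3 CPM, a range that JB81 and JB91 shared. Angpt4 had a median of 1.14 CPM and exceeded 5 CPM in B14 (24.4 CPM) and B2 (9.22 CPM). B27 thus had the least Angpt1 and the most Angpt2 of the tumors, and its per-length ratio of Angpt1 to Angpt2 was 0.0705, against a median of 1.45 over the tumors. Compared with the lines, Angpt1 was higher by 3.95 on the log2 scale (SE 0.72, adjusted p = 0.000334) and Angpt2 by 2.95 (SE 0.75, adjusted p = 0.00362). Angpt4 was at 3.02 (SE 1.17, adjusted p = 0.0363), which did not pass 0.05 with the similar pairs summed (adjusted p = 0.0932) or without any one of JB91, JB97, JB84, JB93, B2, and B14 (0.0525 to 0.0912), and with the lines taken as 1 group at -0.44. The calls of both Angpt1 and Angpt2 were lost with the lines as 1 group, at 2.66 (adjusted p = 0.0233) and 1.47 (adjusted p = 0.209). That of Angpt2 was also lost without JB84, without JB87, and with the similar pairs summed (adjusted p = 0.0119, 0.0119, and 0.0159). Tumor B2, highest in Angpt1, also held lung genes (summed level of Sftpc, Sftpb, Sftpa1, Scgb1a1, and Scgb3a2 of 47190 CPM, against at most 87.2 CPM elsewhere), and without B2 and B19 the same 5 of the 10 genes passed. Angpt1 shares 737 bp of exon with the antisense gene Gm17473, which had 0 reads in the lines and at most 17 in a tumor.

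**Figure D1:**
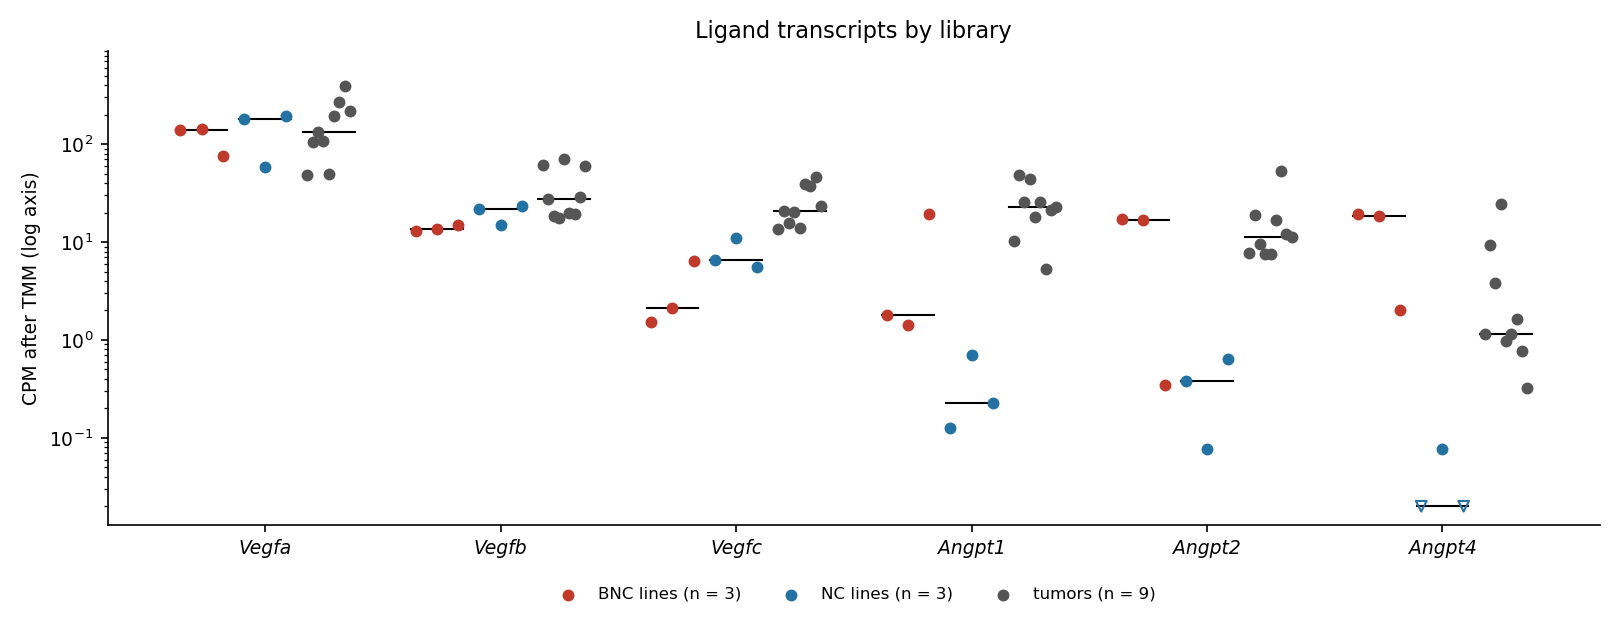
Level of the 6 ligand transcripts in each library, in CPM after TMM scaling on a log axis, with BNC lines in red, NC lines in blue, and tumors in gray. Black bars are medians, and open triangles at the bottom mark libraries with 0 reads. Vegfa and Vegfb were present in every library, and the angiopoietin genes divided the lines.

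The VEGF receptor genes were not confined to tumors. Kdr (chromosome 5, 75932827 to 75978458), the main signaling receptor for VEGF-A, had 57.1 CPM in JB84, 48.4 CPM in JB87, and 56.4 CPM in JB93, all NC lines. In the BNC lines it was at 0.165 and 0.0415 CPM in JB81 and JB91, or 4 reads and 1 read, and at 7.06 CPM in JB97. Every NC line exceeded every BNC line, and the tumors lay between 15.98 CPM in B28 and 88.6 CPM in B27 with a median of 28.01 CPM, around the NC lines and above all BNC lines. The log2 fold change between BNC and NC lines was -4.55 with a large error (SE 1.53, adjusted p = 0.0935). Without JB97 it was -8.94 (SE 0.46, adjusted p = 0.00176), where the BNC group is the closely similar pair JB81 and JB91 alone. With the similar pairs summed it was -3.96 (SE 1.70, adjusted p = 0.474). Between tumors and the mean of the 2 line groups it was 1.88 (SE 0.73, adjusted p = 0.0363), and without JB97 it passed, at 4.10 (adjusted p = 4.65e-05).

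Flt1 (chromosome 5, 147561604 to 147726011), which encodes VEGFR1 and its secreted decoy form, was read at 112 and 110 CPM in JB81 and JB91 and at 25.9 CPM in JB97. The NC lines JB84, JB87, and JB93 had 27.6, 75.8, and 27.3 CPM. The groups overlapped, and the log2 fold change was 0.92 (SE 0.68, adjusted p = 0.358). Tumors were between 29.9 CPM in B13 and 543 CPM in B28, with T22 at 218 CPM and a median of 58.5 CPM. The difference between tumors and lines did not pass the test (log2 fold change 1.06, SE 0.69, adjusted p = 0.193). Counts per gene do not separate the membrane from the secreted form. The per-length ratio of Flt1 to Kdr was between 2.46 and 1776 in BNC lines, between 0.323 and 1.05 in NC lines, and between 0.389 and 22.7 in tumors, where B28 was highest.

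Tek (chromosome 4, 94739289 to 94874976), the angiopoietin receptor, was low in the lines, with at most 30 reads. JB81, JB91, and JB97 had 23, 30, and 7 reads (0.950, 1.24, and 0.350 CPM), and JB84, JB87, and JB93 had 2, 15, and 8 reads (0.126, 1.16, and 0.362 CPM). The log2 fold change between BNC and NC lines was 0.66 (SE 0.85, adjusted p = 0.593). All 9 tumors were above all lines, from 4.04 CPM in B14 through a median of 14.04 CPM to 40.0 CPM in B2. The log2 fold change between tumors and lines was 4.66 (SE 0.66, adjusted p = 4.31e-05).

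Tie1 (chromosome 4, 118471191 to 118490061), the partner of TIE2, had 0 reads in all 6 lines, where 3 reads, the limit that a count of 0 allows, correspond to 0.124 to 0.231 CPM. These floors cover counting error only. Tumors had between 57 and 3074 reads, from 8.93 CPM in B14 to 140 CPM in B27, with a median of 16.3 CPM. By the tumor mean (34.8 CPM), Tie1 was at least 219-fold above the mean floor of the lines (0.159 CPM), or 136-fold without B27. The tumor median was 102-fold above that floor. Tie1 was called higher in tumors (adjusted p = 2.25e-05, edgeR), and it could not be compared between BNC and NC lines.

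**Figure D2:**
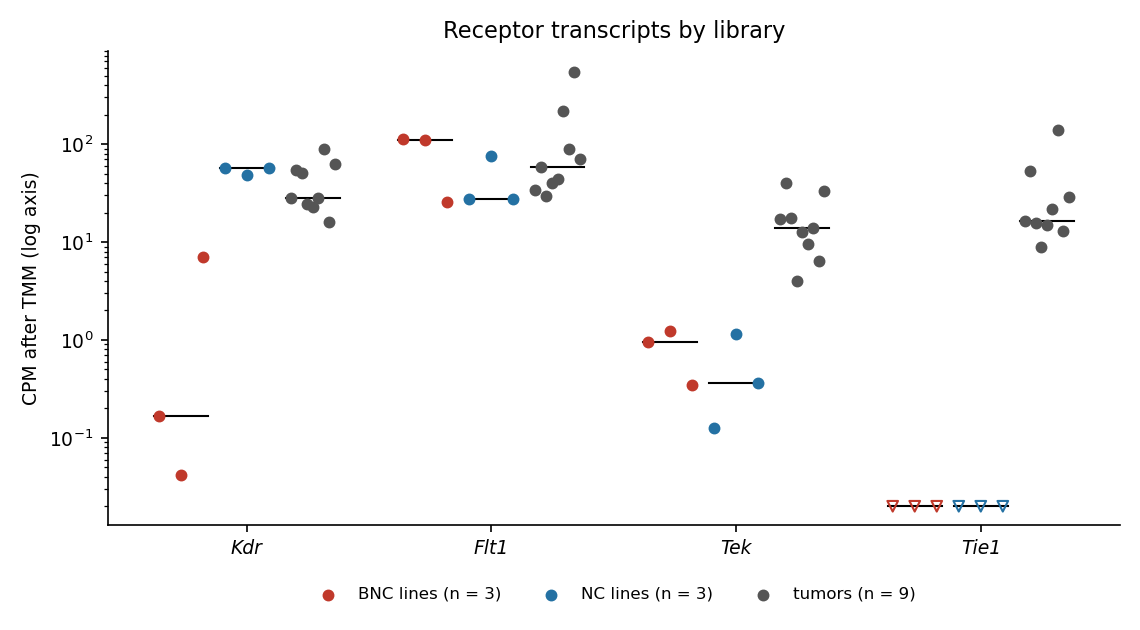
Level of the 4 receptor transcripts in each library, in CPM after TMM scaling on a log axis, with BNC lines in red, NC lines in blue, and tumors in gray. Black bars are medians, and open triangles at the bottom mark libraries with 0 reads. Kdr in NC lines and Flt1 in all lines lay near the tumors, Tek was low in the lines, and Tie1 was found in tumors alone.

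The sequence before the start of these genes is shown for 3 receptor genes with different levels in the lines, Kdr (on in NC lines, nearly off in JB81 and JB91), Flt1 (on in all), and Tek (low in all), and for Angpt4, the ligand with at most 1 read in an NC line. Each is the 250 bases before the RefSeq start (GRCm38.p6), 5′ to 3′ on the strand of the gene. Kdr is chr5:75978456-75978705 on the minus strand, Flt1 chr5:147726012-147726261 on the minus strand, Tek chr4:94739039-94739288 on the plus strand, and Angpt4 chr2:151910957-151911206 on the plus strand. Capitals mark GGAA, the core bound by ETS factors, on either strand (TTCC where it is on the other).
Kdr: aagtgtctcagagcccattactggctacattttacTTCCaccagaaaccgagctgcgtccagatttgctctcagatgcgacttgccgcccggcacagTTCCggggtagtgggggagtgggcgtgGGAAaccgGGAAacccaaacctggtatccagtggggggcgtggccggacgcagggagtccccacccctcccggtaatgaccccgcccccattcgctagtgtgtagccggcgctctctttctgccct
Flt1: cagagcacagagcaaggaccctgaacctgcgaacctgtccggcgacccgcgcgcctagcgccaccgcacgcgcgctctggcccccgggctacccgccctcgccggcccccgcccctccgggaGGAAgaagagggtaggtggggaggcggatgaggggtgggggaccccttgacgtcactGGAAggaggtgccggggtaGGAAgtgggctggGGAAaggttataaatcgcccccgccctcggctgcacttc
Tek: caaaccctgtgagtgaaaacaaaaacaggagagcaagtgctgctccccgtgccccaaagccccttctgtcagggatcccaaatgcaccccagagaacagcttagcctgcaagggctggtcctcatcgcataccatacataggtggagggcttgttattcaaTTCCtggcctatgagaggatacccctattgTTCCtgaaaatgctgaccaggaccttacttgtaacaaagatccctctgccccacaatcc
Angpt4: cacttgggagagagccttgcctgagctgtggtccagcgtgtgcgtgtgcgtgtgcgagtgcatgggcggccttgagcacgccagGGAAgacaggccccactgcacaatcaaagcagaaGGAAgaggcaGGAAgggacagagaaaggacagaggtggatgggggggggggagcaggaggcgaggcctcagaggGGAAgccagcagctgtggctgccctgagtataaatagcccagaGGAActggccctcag

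GGAA was found 4 times before Kdr and Flt1, 2 times before Tek, and 5 times before Angpt4, and 7 times before Tie1. It is a common motif, in 93.4% of 32851 such windows with a median of 3. The windows of Kdr and Flt1 held 16 and 23 CG dinucleotides, and that of Tek held 2, against a median of 6 over all windows. None of these 5 windows held ACGTG, a form of the core of hypoxia response elements, which 16.6% of windows had. ACGTG was present 1 time in 1 of the 2 windows of Vegfa. The other form of the core, GCGTG, was not counted over all windows. The printed windows of Kdr, Flt1, and Angpt4 hold it on either strand, so they do not lack such a core. RefSeq windows were at hand for 8 of the 10 genes, and those of Angpt1 and Angpt2 were not used here.

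Over the 10 genes, 9 had enough reads to be tested between BNC and NC lines, and Tie1 did not. None passed an adjusted p under 0.01 and 2-fold change by edgeR, where 1.1% of all 12376 genes tested did. At an adjusted p under 0.05 Angpt4 alone passed, where the share of all genes was 11.6%. At an unadjusted p under 0.05 the number was 5 of 9 (Vegfb, Angpt1, Angpt2, Angpt4, and Kdr), beside 35.6% of all genes, and DESeq2 called Angpt2 and Angpt4, gave no p for Angpt1, and called 9.88% of the 20424 genes it tested. For 4 of the 9 (Vegfb, Angpt1, Angpt4, and Kdr) the BNC and NC lines did not overlap, a separation seen in 41.4% of all genes tested. The median log2 fold change of the 9 genes was 0.66, and of all genes -0.0023. Without JB97 the genes called were Angpt2 (log2 fold change 5.45), Angpt4, and Kdr, where 7.57% of 12991 genes were called. The BNC group is then the closely similar pair JB81 and JB91 alone, and with such pairs summed 0 genes were called by edgeR (1508 at an unadjusted p under 0.05).

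Between tumors and lines all 10 genes were tested, and 5 passed at an adjusted p under 0.01, all higher in tumors: Vegfc, Angpt1, Angpt2, Tek, and Tie1. Of all 15675 genes tested, 28.2% were called higher in tumors. At an adjusted p under 0.05, Vegfb, Angpt4, and Kdr were added, where the share of all genes was 34.1%. For Vegfc, Tek, and Tie1 every tumor was above every line, as for 16.4% of all genes. All 10 log2 fold changes were above 0, as were 60.0% of all genes, and their median was 2.65 beside 0.38 for all genes.

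The line groups were then compared with the tumors one at a time, in contrasts that share the tumors. Against the BNC lines, Vegfc, Kdr, Tek, and Tie1 were higher in tumors (4 of 10, where 20.5% of all genes were). Against the NC lines, Angpt1, Angpt2, Angpt4, Tek, and Tie1 were (5 of 10, where 16.2% of all genes were). Tek and Tie1 were thus higher in tumors against either group of lines. The log2 fold change of Kdr was 4.12 (SE 1.13) against BNC lines and -0.36 (SE 0.84) against NC lines. For Angpt2 it was 0.50 (SE 0.84) against BNC lines and 5.41 (SE 1.19) against NC lines. Angpt4 was at -1.44 (SE 1.05) against BNC lines and was at least 26.1-fold above the floor of the NC lines by the tumor mean. This bound rests on B14, without which it was 12.8-fold, and the tumor median was 6.17-fold above the floor.

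**Figure D3:**
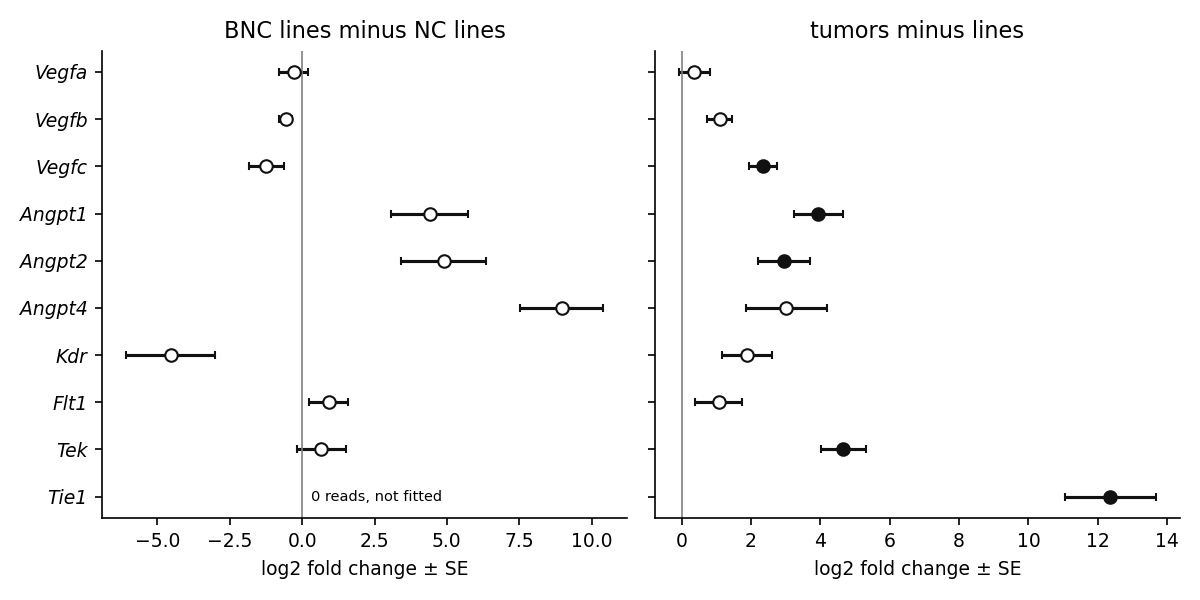
Log2 fold change with its standard error for the 10 genes, between BNC and NC lines on the left and between tumors and lines on the right (edgeR). Filled points passed an adjusted p under 0.01 and 2-fold change. The point of Tie1 on the right, and that of Angpt4 on the left, is set against libraries with at most 1 read and depends on the fit, so its size is not a measured fold.

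Per length of exon, Vegfa had the highest median level of the 10 genes in each group, at 32.4 CPM per kb in BNC lines, 42.7 in NC lines, and 30.96 in tumors, followed by Vegfb at 8.47, 13.6, and 17.02 CPM per kb. In BNC lines, Flt1 (8.15) and Angpt4 (7.85) were next and overlapped with Vegfb in range. In NC lines Kdr came after Vegfb with 6.25 CPM per kb. In the tumors, the medians of Angpt1, Flt1, Tie1, Kdr, Angpt2, and Tek were between 2.98 and 4.43 CPM per kb and their ranges overlapped, so their order was not resolved, and Angpt4 was last with 0.490. Vegfa exceeded Vegfb per length in all 6 lines and in 7 of 9 tumors.

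The receptor levels were set against the endothelial markers over the 9 tumors, with the mean log2(CPM + 1) of the 14 markers as the score. Points share a library, and 10 relations were computed. Tie1 rose with the score (Pearson's r = 0.925, exact permutation p = 0.000664, adjusted p = 0.00664; Spearman's rho = 0.867, exact permutation p = 0.00451, adjusted p = 0.0451). Without B27 and B2, the tumors farthest from the median score, r was 0.668 over 7 tumors. B2 is the tumor that also held lung genes, and the part of lung tissue in its score and receptor levels was not tested. For Kdr r was 0.770 (exact permutation p = 0.0143, adjusted p = 0.0658) and rho 0.717 (exact permutation p = 0.0369, adjusted p = 0.184), and r was 0.493 without those 2. For Tek r was 0.626 (exact permutation p = 0.0702, adjusted p = 0.176) and rho 0.650 (exact permutation p = 0.0666, adjusted p = 0.222), with r at 0.796 without those 2. For Flt1 r was -0.227 (exact permutation p = 0.571, adjusted p = 0.952) and rho -0.033 (exact permutation p = 0.948, adjusted p = 0.948), with r at -0.456 without them, and the tumor with the most Flt1, B28, had the lowest score.

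Among the ligands, Angpt2 had the highest r with the score, 0.746 (exact permutation p = 0.0197, adjusted p = 0.0658), with rho 0.483 (exact permutation p = 0.194, adjusted p = 0.484). Without B27 and B2 its r was -0.0991, so the relation rests on those tumors. For Vegfa, Vegfb, Vegfc, Angpt1, and Angpt4 r was between -0.475 and 0.0180, with adjusted exact permutation p-values of 0.385 or more, and rho was between -0.317 and 0.250, with adjusted values of 0.788 or more. Without B27 and B2 their r was between -0.693 (Angpt1) and 0.659 (Vegfb).

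**Figure D4:**
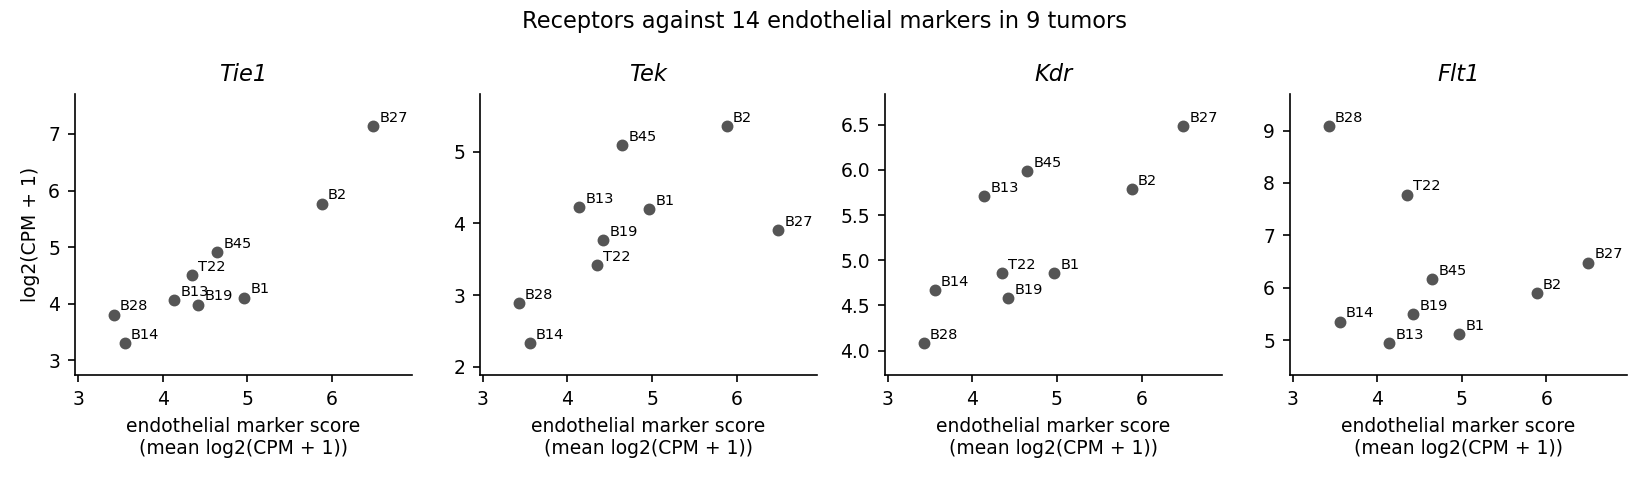
Level of the 4 receptor transcripts, as log2(CPM + 1), against the mean log2(CPM + 1) of 14 endothelial markers in 9 tumors, each point a tumor with its column number. Tie1 rose with the markers, with B27 and B2 at the upper end, whereas Flt1 was highest in B28, at the lower end. B2 also held lung genes.

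By likeness of pattern over the 9 tumors (Pearson's r of log2(CPM + 1), given as a description, since tumors share libraries and all tested genes with a symbol were ranked), the 3 genes nearest to Tie1 were Sema3g (r = 0.989), B3gnt5 (0.976), and Hdc (0.972). Nearest to Kdr were Cpz (0.960), Nos3 (0.940), and Foxq1 (0.938). Nos3 encodes the endothelial nitric oxide synthase. Nearest to Tek were Slc4a8 (0.980), Fmo1 (0.973), and Alox12 (0.966), and to Flt1 Gm10369 (0.977), Dennd2a (0.974), and Sgk1 (0.971).

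Among the ligands, Vegfa was nearest to Spry2 (r = 0.977), Zc3h12c (0.971), and Gm26682 (0.966). Spry2 encodes a feedback inhibitor of receptor tyrosine kinase signaling. Vegfb was nearest to Zranb1 (0.986), Kat8 (0.971), and Gm15506 (0.966), and Vegfc to Plcxd2 (0.980), Chst11 (0.974), and Plk2 (0.971). Angpt1 was nearest to Rab27b (0.946), Pigz (0.941), and Prps2 (0.933). Angpt2 was nearest to Prss16 (0.978), Prss27 (0.970), and Procr (0.953), the last of which encodes the endothelial protein C receptor. Angpt4 was nearest to Ankrd13a (0.955), Ppp2r2b (0.949), and Gm16567 (0.945).

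Other genes of the pathways were read from lists. Of 6 further VEGF and angiopoietin pathway genes (Pgf, Vegfd, Flt4, Nrp1, Nrp2, and Ptprb), 5 were tested between BNC and NC lines and 0 passed by edgeR (1 at an unadjusted p under 0.05, 0 by DESeq2), with log2 fold changes from -1.59 for Nrp2 to 1.39 for Flt4. Both encode VEGF-C receptors. Between tumors and lines 1 of 6 rose (28.2% of all genes did), Pgf, a VEGFR1 ligand, by 5.39 (SE 0.96, adjusted p = 0.000288), and the smallest value was that of Vegfd at -0.46. The median of the 6 was 0.56, beside 0.38 for all genes. Of 9 endothelial signaling genes, 6 were tested between lines and 0 passed by edgeR (2 at an unadjusted p under 0.05, 1 by DESeq2), from -1.77 for Notch4 to 2.91 for Ephb4. In tumors 5 of 9 rose (28.2% of all genes), namely the Notch ligand gene Dll4 (8.78, the largest), the Notch receptor gene Notch4 (5.01), the apelin receptor gene Aplnr (6.99), the BMP receptor gene Acvrl1 (6.53), and the sphingosine phosphate receptor gene S1pr1 (5.53), and Efnb2 was smallest at -0.91.

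Of 5 genes for antiangiogenic factors, 3 were tested between lines and 0 passed by edgeR (2 at an unadjusted p under 0.05, 2 by DESeq2), from 1.13 for Thbs1 to 1.84 for Serpinf1. In tumors 4 of 5 rose (28.2% of all genes), with Thbs2, a thrombospondin gene, the largest (8.04), followed by Vash1 (3.32), Col18a1 (3.10), the source of endostatin, and Serpinf1 (2.85), and Thbs1 smallest at 0.52. Of 10 HIF target genes, 9 were tested between lines and 0 passed by edgeR (4 at an unadjusted p under 0.05, 2 by DESeq2), from -4.23 for Egln3 to 3.22 for Adm. In tumors 5 of 10 rose (28.2% of all genes), led by the carbonic anhydrase gene Car9 (6.89), with Egln3 (4.12), Bnip3 (3.54), Pdk1 (2.95), and Ankrd37 (2.82), and the glycolytic gene Pgk1 was smallest at -0.37. Vegfa, also a HIF target, was not among the genes that rose.

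The summed levels of endothelial, lymphatic, and leukocyte markers were higher in every tumor than in any line. Of all genes tested, 28.2% were called higher in tumors. All 14 endothelial markers were higher in tumors, from 3.38 for Esam to 12.2 for Cldn5 on the log2 scale, as were both lymphatic markers, Lyve1 (8.74) and Prox1 (4.01), and all 6 leukocyte markers, from 5.10 for Cd68 to 13.4 for Adgre1. Of 9 mural cell markers 7 were higher, with Des, which muscle also expresses, the largest (12.4) and Acta2 the smallest at -1.38. The summed level of mural markers was between 2319 and 3219 CPM in BNC lines and between 32.3 and 728 CPM in NC lines. In tumors it was 828 to 12491 CPM. Most of the sum in BNC lines was Acta2 (2093 to 3033 CPM), and in tumors Des reached 11940 CPM. The markers Rgs5, Cspg4, Abcc9, and Kcnj8 had at most 7 reads in any line. The sizes of Cldn5, Lyve1, Adgre1, and Des are fitted against libraries with few reads, and those of Esam, Cd68, and Acta2 are not. Of 9 mesothelial markers 2 were higher (28.2% of all genes were), Krt18 (5.10) and Lrrn4 (4.22), and Wt1 was smallest at 0.23. Between BNC and NC lines 0 of the markers in these lists passed by edgeR, where 1.1% of all genes did. An unadjusted p under 0.05 was seen in edgeR for 35.6% of all genes, and DESeq2 called 9.88%. Endothelial markers ranged from -3.07 for Esam to 1.65 for Egfl7 (2 of 3 tested at an unadjusted p under 0.05, and 1 called by DESeq2), mural markers from -2.99 for Des to 4.22 for Pdgfrb (3 of 5, and 2), mesothelial markers from -8.12 for Krt18 to 0.30 for Wt1 (2 of 9, and 2), and leukocyte markers from -0.38 for Cd68 to 3.08 for Csf1r (0 of 2, and 0). The summed leukocyte level was between 393 and 1502 CPM in tumors and at most 6.05 CPM in the lines. The part of each cell type in the levels of the 10 genes was not tested.

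Low-coverage DNA profiles of 14 tumors, as log2 ratios to normal tail per bin, were read around each gene (500 kb on either side) after centering on the autosomal median. For 8 of the 10 genes the median of these bins stayed between -0.0955 and 0.0699 in every tumor. At Vegfa the highest was 0.128 in B25. At Vegfb it was 0.293 in B28, where the median of chromosome 19 was 0.303, and the RNA column with the same B number had 29.2 CPM of Vegfb. The lowest at Vegfb was -0.137 in B20. At Flt1, which was highest in the RNA of B28, no tumor was above -0.0102. In the RNA of the lines, genes on chromosome 8, which carries Angpt2 and Vegfc, had a median log2 fold change of 0.41 between BNC and NC lines. The median was 0.18 on chromosome 15 (Angpt1) and -0.24 on chromosome 19 (Vegfb). On the chromosomes of the other genes it was between -0.064 and 0.048. The DNA of the lines was not analysed here.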

How the data were processed

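RNA was sequenced from 3 BNC lines, 3 NC lines, and 9 tumors after poly-A enrichment, in single-end reads of 65 bp. The authors mapped reads to mm10 with TopHat (2.0.12, also in the submitters' processing notes), dropped low-quality and nonprimary alignments, and deposited HTSeq counts, whole numbers of reads per gene without normalization. The strand setting of the counting is not given in the sources used here. For tumor DNA the authors aligned reads with BWA (7.10) and deposited log2 ratios of 20-kb bins, corrected for GC content and mappability. Lines were assigned by names in the study's gene list. Tumors were the 9 remaining columns, 8 of which carry a B number, and their genotype was not assigned.

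Counts were filtered (filterByExpr, minimum count 10), scaled by TMM, and tested by edgeR 4.0.16 (R 4.3.3, quasi-likelihood) between BNC and NC lines, without covariates, and between tumors and the mean of both line groups, with p-values adjusted by Benjamini-Hochberg over all genes. A call needs an adjusted p under 0.01 and 2-fold change. A standard error is the log2 fold change divided by the square root of F. The step was tested on simulated data with independent libraries, so that test does not cover the closely similar pairs of lines. Alternatives were DESeq2 1.42.0, no TMM, no filter, the replicate block, run, summed similar pairs, and each library left out. Contrasts with each line group, and fits without B1 and B13, B2 and B19, or B1, B19, and B45, were chosen after seeing the data, as were the lung and muscle genes. The 10 genes and the lists were chosen with earlier results of these data known. Of each list the largest, the smallest, and called genes are named. Exon lengths come from GENCODE M21 (GRCm38). Symbols were found for 98.5% of genes. Chromatin profiles were not used here.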

Additional observations from a re-analysis of the deposited data

Results flagged for a closer look

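Each of the 10 genes was examined over the 9 tumors for a library set apart from the others. The rule was a gap to the nearest other of more than 0.493 of the whole range (Dixon's 95% critical value). For normally distributed values chance alone would give this in about 1 in 20 groups. The levels were taken in CPM without a log, where that rate need not hold, so the flags are a description. Such a gap was found for 4 genes. Angpt2 had 53.6 CPM in B27, with a gap of 0.754 of the range, and Tie1 had 140 CPM in the same tumor, with a gap of 0.659. Flt1 had 543 CPM in B28, with a gap of 0.633. Angpt4 had 24.4 CPM in B14, with a gap of 0.631. Reads on Angpt4 in B14 numbered 580, so counting error is small beside the gap.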

How the results depend on the processing

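For single genes, 110 of 117 alternative values of the log2 fold change between BNC and NC lines and 227 of 240 between tumors and lines kept direction and call. The threshold of 0.05 reuses the main fits, so its values keep their direction by construction. Between BNC and NC lines several settings called at most 1 gene of all. An uncalled gene that stayed uncalled there is no sign of stability. Counts moved more. Between BNC and NC lines edgeR called 136 genes, and DESeq2 2017, the run covariate 1, summed similar pairs 0 (1508 at an unadjusted p under 0.05), a threshold of 0.05 1436, and leaving out 1 line between 0 and 2574 (984 without JB97, 2574 without JB87). The genes called among the 10 numbered 0, and 2 by DESeq2, 1 at 0.05, and between 0 and 3 with 1 line left out (3 without JB97). With the replicate block 0 genes were called (2146 at an unadjusted p under 0.05) and Vegfa turned to 0.31. The numbers come from the study's gene list, where JB91 and JB97 share a number. Same-numbered lines deviated with correlations of 0.128, 0.100, and -0.0861, and lines with different numbers with -0.109 to 0.0998. Since each group of 3 holds a closely similar pair, these values cannot show whether the numbers mark pairs. Between tumors and lines the genes called among the 10 numbered 5, and 8 at 0.05, 3 with the lines as 1 group, where Angpt4 turned to -0.44, and between 4 and 6 with 1 library left out. Leaving out JB97 added Kdr, leaving out B14 added Vegfb, and DESeq2 added both. The run covariate could not be fitted there, since run and tissue coincide. Without TMM the median of all genes was -0.14 between BNC and NC lines. Depth limited Tie1 and Angpt4 in lines, where bounds replace folds.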
